A study of Mus musculus with 14 samples.

Results

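The Fc gamma receptors bind the constant part of IgG and are the means by which macrophages, microglia and other myeloid cells sense antibody-coated material and immune complexes. The genes described here are the mouse receptors Fcgr1, Fcgr2b, Fcgr3 and Fcgr4, the signalling chain Fcer1g, the recycling receptor Fcgrt and the receptor-like gene Fcrls. They were chosen by symbol, and all 7 were matched by Ensembl identifier among the 55536 Ensembl genes of the count table. All 7 passed the minimum of 10 counts over the libraries.

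Hippocampal poly(A) RNA was sequenced from 14 mice aged 10 months, and each mouse gave 1 library. The 4 MRL mice carried the Fas lpr mutation of the lupus-prone MRL strain on a C57BL/6 background. The 4 MRL-IRAK4-KD mice carried lpr together with a kinase-dead Irak4, a mutation present in all tissues. The controls were 3 C57BL6/J mice with neither mutation and 3 mice labelled IRAK4-KD, by label with the kinase-dead Irak4 and without lpr. Brains of the study were perfused before dissection. By the study's methods the C57BL/6 mice were bought from a vendor and the other strains came from a laboratory colony, so that genotype and source cannot be told apart in any comparison with C57BL6/J. The question put to these genes was whether receptors for IgG differed in the hippocampus of lupus-prone mice, and whether they differed when IRAK4, a kinase downstream of Toll-like and interleukin-1 receptors, had no activity.

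Fcgr1, Fcgr3 and Fcgr4 are activating receptors. They signal through the Fc receptor common gamma chain encoded by Fcer1g, whose ITAM motif is phosphorylated by Src family kinases and then recruits Syk. Fcgr2b is the only inhibitory Fc gamma receptor. Its ITIM motif recruits phosphatases such as SHIP1, encoded by Inpp5d, and its loss is known to favour lupus in mice. Fcgrt encodes the heavy chain of FcRn, which pairs with beta-2-microglobulin and carries IgG and albumin through endosomes, and in brain it is known from endothelium and choroid plexus. Fcrls encodes an Fc receptor-like protein and is a widely used marker of resident microglia.

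On mm10, Fcgr2b (ENSMUSG00000026656.15, chromosome 1, 170958617 to 170976547, minus strand), Fcgr4 (ENSMUSG00000059089.4, 171018920 to 171029761, plus strand), Fcgr3 (ENSMUSG00000059498.13, 171051174 to 171064935, minus strand) and Fcer1g (ENSMUSG00000058715.11, 171229572 to 171234365, minus strand) lie side by side on chromosome 1. Fcgr1 (ENSMUSG00000015947.10, 96282909 to 96293969, minus strand) and Fcrls (ENSMUSG00000015852.13, 87250758 to 87263738, minus strand) lie on chromosome 3. Fcgrt (ENSMUSG00000003420.8, 45092990 to 45103851, minus strand) lies on chromosome 7.

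The inhibitory Fcgr2b and the activating Fcgr3 share coding sequence, which matters for counting because reads from a shared stretch could be assigned to either gene. The longest stretch identical in their main transcripts covers 102 bases of exon 3 in both genes, with capitals not used because no part of it differs. It lies at chr1:170967980-170968081 in Fcgr2b and at chr1:171057691-171057792 in Fcgr3, on the minus strand of GRCm38, and runs on for 27 bases into exon 4.
Shared by Fcgr2b and Fcgr3, exon 3: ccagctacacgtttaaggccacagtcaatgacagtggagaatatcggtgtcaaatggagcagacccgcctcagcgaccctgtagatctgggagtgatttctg
Shared by Fcgr2b and Fcgr3, exon 4: actggctgctgctccagacccctcagc
Of the 1248 windows of 100 bases in the Fcgr3 transcript, 44 also occur in Fcgr2b. Of the 3405 windows in the Fcgr2b transcript, 194 occur in another gene, 44 of them in Fcgr3. The main transcripts of the other 5 genes have 0 such windows. Fcgr2b exons also overlap the antisense gene Gm38204, and since strand was not stated for the counting, reads of both cannot be told apart.

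Promoters of Fcgr1 and Fcgr4 are shown because these receptors are known targets of interferons, through the GAS and ISRE motifs, and of the myeloid factor PU.1, and because both genes were highest in MRL libraries. The sequences are from RefSeq on GRCm38.p6 and run from 130 to 11 bases before the annotated start. Capitals mark matches on either strand to GAS (TTCNNNGAA), to an ISRE core (GAAA, any 2 bases, GAAA) or to a PU box (GAGGAA).
Fcgr1, chr3:96293980-96294099, minus strand: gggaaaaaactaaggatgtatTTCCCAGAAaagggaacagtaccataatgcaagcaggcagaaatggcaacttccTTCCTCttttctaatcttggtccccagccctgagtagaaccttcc
Fcgr4, chr1:171018796-171018915, plus strand: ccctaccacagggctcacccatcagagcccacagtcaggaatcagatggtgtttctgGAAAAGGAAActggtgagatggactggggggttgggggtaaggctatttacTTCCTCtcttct
The GAS match of Fcgr1 begins 109 bases and the ISRE core match of Fcgr4 begins 73 bases before the start. In the 250 bases before the RefSeq start, a PU box was also matched in Fcgr3 and Fcrls, and none of the 3 motifs was matched in Fcgr2b, Fcer1g or Fcgrt. The windows of Fcgr2b (170976072 to 170976321) and Fcgr3 (171059404 to 171059653) lie inside the gene spans given above. Bases upstream of those spans were not examined. Of 32851 mouse promoters of that length, 23.3% hold the PU box, 7.02% the GAS motif and 2.98% the ISRE core. These matches describe the letters of the window and are not measured sites.

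Libraries and labels were checked before the members were read. Total counts ranged from 279941472 to 572398312 per library. MRL-IRAK4-KD replicate 4 stood apart from the other 13 libraries, with a score of 152 on the first principal component against -28.4 to 8.82 for the others, and its 8 choroid plexus markers summed to 7805 CPM against 68.2 to 1851 elsewhere. Its library was at 13.48 nM by qPCR against 23.49 to 27.55 nM for the others, and had 1.40 counts per sequenced read against 1.80 to 2.08. The full-length Fas transcript had 0 counts in all 8 lpr libraries and between 345 and 584 counts in C57BL6/J. It was also at 0 in the library with the label IRAK4-KD replicate 3, which goes against that label, and a short Fas transcript of the lpr libraries had 514 counts there. Irak4 was between 1.54 and 2.72 CPM in every library, and counts do not show the kinase-dead mutation. Markers of hippocampal neurons summed to between 360 and 684 CPM and markers of microglia to between 485 and 788 CPM, so both were present in every library.

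Levels between genes can be compared only per length, as CPM (counts scaled to library size, after TMM) divided by the kilobases of merged exons. On that scale Fcrls, Fcer1g, Fcgr3 and Fcgrt were the abundant members, with means over all 14 libraries of 8.66 ± 1.06, 8.64 ± 3.79, 8.61 ± 1.69 and 7.21 ± 1.96 CPM per kb (SD, n = 14). These 4 genes exchanged ranks 1 to 4 between libraries, and their levels did not differ beyond their spread. Fcgr1 followed at 1.18 ± 0.241, Fcgr2b at 0.713 ± 0.244 and Fcgr4 at 0.187 ± 0.263 CPM per kb. On this scale Fcgr1, Fcgr2b and Fcgr4 held ranks 5, 6 and 7 in each of the 14 libraries. The low-affinity activating receptor Fcgr3 was therefore the most abundant of the 4 Fc gamma receptors throughout. The order of Fcgr1 and Fcgr2b depends on the length used. Merged exons of Fcgr2b span 5790 bases and its main transcript 3544 bases, while both are 2589 bases for Fcgr1. Undivided, Fcgr2b had the higher mean over all libraries, 4.13 CPM against 3.05 CPM for Fcgr1.

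**Figure D1:**
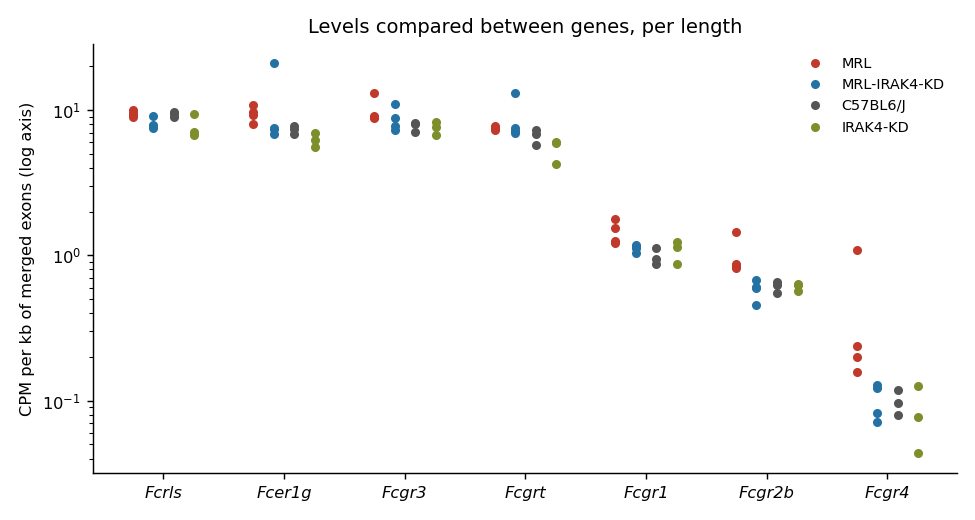
Level of each gene in each library, in CPM per kb of merged exons on a log axis, with 1 point per library and colours for the 4 groups. On this scale Fcgr1, Fcgr2b and Fcgr4 lie below the other 4 genes in every library, in that order.

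The inhibitory receptor Fcgr2b and the activating receptor Fcgr4 were the members that separated MRL mice from all other mice. In both genes each of the 4 MRL libraries was above each of the other 10 libraries, a pattern that 0.728% of the 38070 genes tested had. Fcgr2b was 1.70-fold and Fcgr4 4.15-fold higher in MRL than in MRL-IRAK4-KD mice in the fitted comparison. Neither passed the adjusted threshold of edgeR, and DESeq2 called both, as described with the comparisons.

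Fcgr2b was at 4.72, 5.06, 4.86 and 8.43 CPM in MRL replicates 1 to 4. It was at 3.94, 3.48, 3.51 and 2.65 CPM in MRL-IRAK4-KD, at 3.79, 3.62 and 3.17 CPM in C57BL6/J and at 3.60, 3.67 and 3.27 CPM in IRAK4-KD mice. MRL replicate 4 was the highest library and MRL-IRAK4-KD replicate 4 the lowest, and the other 3 MRL libraries lay close together above every library of the other groups. The transcript Fcgr2b-202 held 46.3% of the counts of the gene over all libraries. It had 0 counts in MRL-IRAK4-KD replicate 4 and 446 to 2307 counts in each other library. Whether the low Fcgr2b of that library rests on this transcript was not tested. The group means were 5.77 ± 1.78 CPM (SD, n = 4) in MRL mice, 3.40 ± 0.538 (n = 4) in MRL-IRAK4-KD, 3.53 ± 0.322 (n = 3) in C57BL6/J and 3.51 ± 0.214 (n = 3) in IRAK4-KD mice. In bulk tissue, fewer cells of a type and less RNA per cell cannot be told apart, here and in every result that follows.

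Between MRL and MRL-IRAK4-KD mice Fcgr2b had a log2 fold change of 0.76 (SE, the standard error, 0.19, 95% interval 0.36 to 1.17), with an edgeR unadjusted p of 0.00133 and an adjusted p of 0.32. Without MRL replicate 4 the log2 fold change was 0.54 (edgeR unadjusted p = 0.00404), and without replicate 4 of both groups it was 0.43 (edgeR unadjusted p = 0.00253). The exact permutation test gave p = 0.0286, the smallest that 4 mice against 4 allow, which became 0.2 after adjustment over the 35 permutation tests of these genes. Over C57BL6/J mice the log2 fold change was 0.71 (SE 0.21, edgeR adjusted p = 0.65), and 0.48 without MRL replicate 4.

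Fcgr4 was the rarest member and differed most in size. Its counts were 116, 171, 93 and 650 in MRL replicates 1 to 4, or 0.249, 0.299, 0.196 and 1.36 CPM. In MRL-IRAK4-KD mice it was at 0.103, 0.160, 0.0896 and 0.155 CPM, in C57BL6/J mice at 0.122, 0.101 and 0.150 CPM and in IRAK4-KD mice at 0.0545, 0.158 and 0.0973 CPM. These other 10 libraries rest on 22 to 63 counts each. MRL replicate 4 was far above the other MRL libraries, and the lowest MRL library, replicate 3, was above the highest library of the other groups.

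Between MRL and MRL-IRAK4-KD mice Fcgr4 had a log2 fold change of 2.05 (SE 0.58, 95% interval 0.81 to 3.30), with an edgeR unadjusted p of 0.00334 and an adjusted p of 0.393. MRL replicate 4 decided the size of this difference. Without it the log2 fold change was 0.99 (edgeR unadjusted p = 0.0264), a 1.99-fold difference. It was 2.08 over C57BL6/J mice (SE 0.65, edgeR adjusted p = 0.693), and 1.01 without that library. The exact permutation p was 0.0286 over MRL-IRAK4-KD mice and 0.0571 over C57BL6/J mice, in each case the smallest that the 2-sided test used gives.

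Fcgr1, the high-affinity receptor for IgG, was at 4.01, 3.16, 3.26 and 4.57 CPM in MRL and at 2.96, 2.89, 2.71 and 3.06 CPM in MRL-IRAK4-KD mice. It was at 2.93, 2.46 and 2.27 CPM in C57BL6/J and at 3.21, 2.94 and 2.27 CPM in IRAK4-KD mice. The MRL libraries did not overlap the MRL-IRAK4-KD or C57BL6/J libraries, while IRAK4-KD replicate 1 lay between MRL replicates 2 and 3. The log2 fold change was 0.37 over MRL-IRAK4-KD mice (SE 0.16, 95% interval 0.02 to 0.72, edgeR unadjusted p = 0.0387, adjusted p = 0.439). Without MRL replicate 4 it was 0.28 (edgeR unadjusted p = 0.118). Over C57BL6/J mice it was 0.56 (SE 0.18, edgeR unadjusted p = 0.00725, adjusted p = 0.716).

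Fcgr3, the abundant low-affinity activating receptor, was at 15.7, 15.4, 15.4 and 22.9 CPM in MRL and at 15.3, 13.4, 12.6 and 19.0 CPM in MRL-IRAK4-KD mice. It was at 13.9, 12.2 and 14.2 CPM in C57BL6/J and at 13.3, 14.3 and 11.6 CPM in IRAK4-KD mice. The MRL libraries lay above all 6 libraries without lpr by label, and MRL-IRAK4-KD replicate 4 lay within the MRL range. The log2 fold change was 0.20 over MRL-IRAK4-KD mice (SE 0.16, 95% interval -0.14 to 0.54, edgeR adjusted p = 0.59). Without MRL-IRAK4-KD replicate 4 it was 0.34 (edgeR unadjusted p = 0.0254), and without MRL replicate 4 it was 0.06. It was 0.37 over C57BL6/J mice (SE 0.17, edgeR unadjusted p = 0.049, adjusted p = 0.899), and 0.22 without MRL replicate 4.

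**Figure D2:**
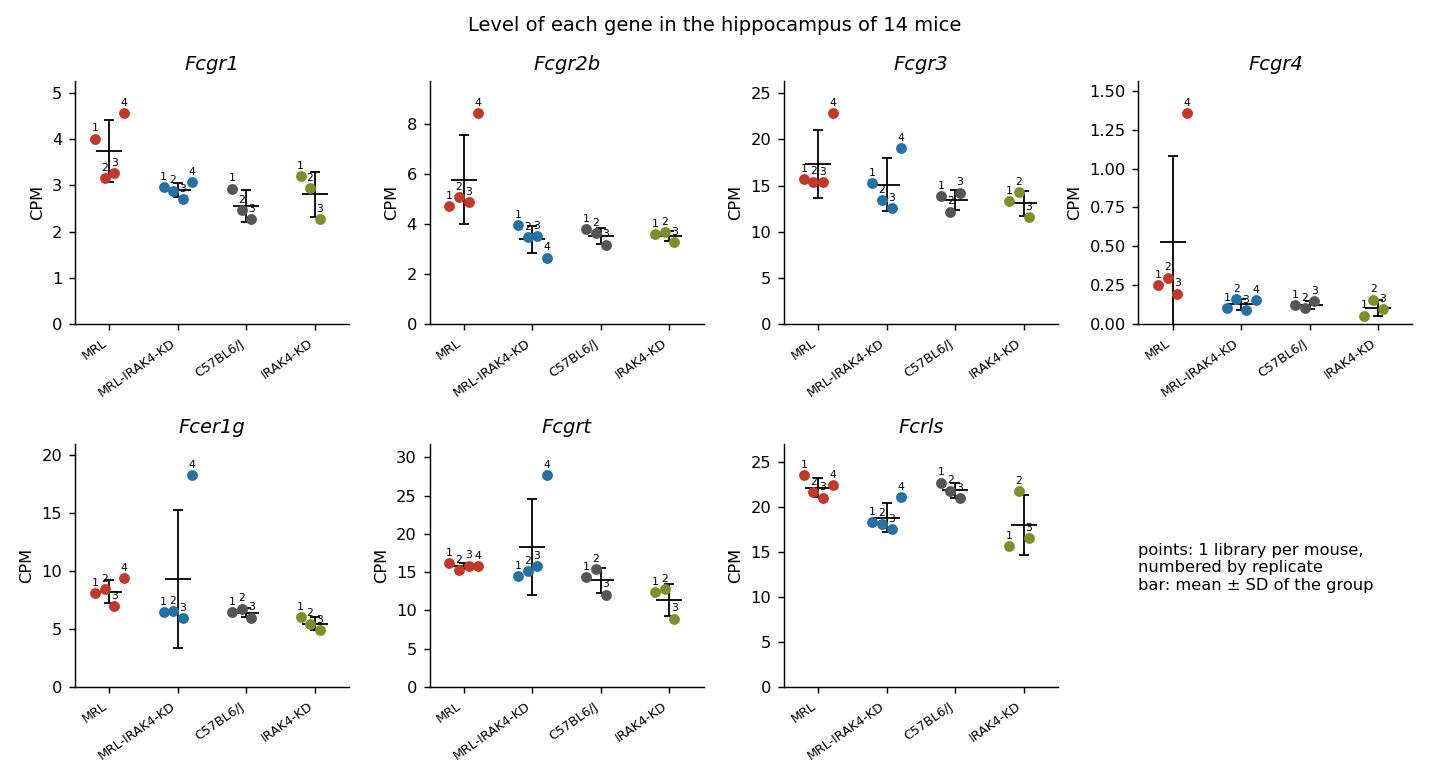
CPM of the 7 genes in each library by group on linear axes from 0, with replicate numbers at the points and bars for the group mean and its SD, cut at 0 for Fcgr4 in MRL mice. MRL replicate 4 is the highest library for Fcgr1, Fcgr2b, Fcgr3 and Fcgr4, and MRL-IRAK4-KD replicate 4 the highest for Fcer1g and Fcgrt.

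Fcer1g, the ITAM chain that the activating receptors share, was highest in MRL-IRAK4-KD replicate 4. It was at 8.07, 8.44, 6.99 and 9.39 CPM in MRL mice. In MRL-IRAK4-KD mice it was at 6.46, 6.53, 5.96 and 18.3 CPM. It was at 6.48, 6.76 and 5.98 CPM in C57BL6/J and at 6.03, 5.46 and 4.89 CPM in IRAK4-KD mice. MRL-IRAK4-KD replicate 4 was 2.89 times the mean of the other 3 libraries of its group, and apart from it every MRL library was above every library of the other groups.

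In MRL over MRL-IRAK4-KD mice the log2 fold change of Fcer1g was -0.18 (SE 0.29, 95% interval -0.81 to 0.45, edgeR adjusted p = 0.827). Without MRL-IRAK4-KD replicate 4 it was 0.39 (edgeR unadjusted p = 0.00364, adjusted p = 0.323), so that this library turned the direction. Tyrobp, the other ITAM adaptor of microglia, had 25.2 CPM in that library against 9.82 to 11.2 CPM in the other MRL-IRAK4-KD libraries. Over C57BL6/J mice the log2 fold change of Fcer1g was 0.36 (SE 0.32, 95% interval -0.33 to 1.05, edgeR adjusted p = 1).

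Fcgrt was at 16.2, 15.3, 15.9 and 15.8 CPM in MRL mice and at 14.5, 15.1, 15.8 and 27.6 CPM in MRL-IRAK4-KD mice. It was at 14.4, 15.3 and 12.1 CPM in C57BL6/J and at 12.4, 12.7 and 8.92 CPM in IRAK4-KD mice. The 4 MRL libraries were nearly level, the library with high choroid plexus markers was the highest of all, and IRAK4-KD mice were the lowest group. The log2 fold change over MRL-IRAK4-KD mice was -0.21 (SE 0.19, 95% interval -0.62 to 0.20, edgeR adjusted p = 0.647). Leaving out MRL-IRAK4-KD replicate 4 gave 0.07.

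Fcrls was at 23.5, 21.6, 21 and 22.4 CPM in MRL and at 18.3, 18.1, 17.5 and 21.1 CPM in MRL-IRAK4-KD mice. It was at 22.7, 21.8 and 20.98 CPM in C57BL6/J and at 15.6, 21.8 and 16.5 CPM in IRAK4-KD mice. The libraries with intact Irak4 were between 20.98 and 23.5 CPM, and 5 of the 7 libraries with the kinase-dead gene were below 19 CPM. Over MRL-IRAK4-KD mice the log2 fold change was 0.24 (SE 0.11, edgeR unadjusted p = 0.0472, adjusted p = 0.439), and between IRAK4-KD and C57BL6/J mice it was -0.28 (SE 0.13, edgeR unadjusted p = 0.0432, adjusted p = 1). Without the library labelled IRAK4-KD replicate 3 this second value was -0.22 (edgeR unadjusted p = 0.142).

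Set side by side, MRL against MRL-IRAK4-KD mice gave 0 of 7 members at an edgeR adjusted p below 0.05, where 0.0972% of all genes were called. At an unadjusted p below 0.05 it gave 4 of 7, Fcgr1, Fcgr2b, Fcgr4 and Fcrls, all higher in MRL mice, against 11.4% of all genes. The median log2 fold change of the members was 0.24 and that of all genes tested 0.0023. DESeq2 called Fcgr2b (adjusted p = 0.0141) and Fcgr4 (adjusted p = 0.0338), 2 of 7 against 1.05% of all genes. Limma-voom with quality weights called 0 of 7 against 0.559% of all genes, with 6 of 7 at an unadjusted p below 0.05 and a lowest adjusted p of 0.0886, that of Fcgr2b. In 3 of 7 members, Fcgr1, Fcgr2b and Fcgr4, the MRL libraries lay above all MRL-IRAK4-KD libraries, as in 3.13% of all genes. At an unadjusted p below 0.05 there were 2 of 7 members when MRL replicate 4 was left out and 6 of 7 when MRL-IRAK4-KD replicate 4 was.

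MRL against C57BL6/J mice gave 0 of 7 members at an edgeR adjusted p below 0.05, where 0.0% of all genes were called. At an unadjusted p below 0.05 the 4 Fc gamma receptors were all higher in MRL mice, 4 of 7 members against 5.55% of all genes. The median log2 fold change was 0.37 over the members and -0.0046 over all genes. DESeq2 called 0 of 7 members against 0.523% of all genes, with a lowest adjusted p of 0.0831, and limma-voom 0 of 7 against 0.0998%. In 5 of 7 members, the receptors and Fcer1g, the MRL libraries lay above all C57BL6/J libraries, as in 4.47% of all genes. The smallest exact permutation p of this design is 0.0571, so that no single gene could pass 0.05 there. Both of these comparisons use the same MRL libraries.

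MRL-IRAK4-KD against C57BL6/J mice gave 0 of 7 members at an edgeR adjusted p below 0.05, against 0.0972% of all genes, and 0 of 7 at an unadjusted p below 0.05, against 8.62%. Fcgr2b had a log2 fold change of -0.06 (95% interval -0.50 to 0.38) and Fcgr1 of 0.19 (95% interval -0.19 to 0.56). The interval of Fcgr4, -1.30 to 1.35, is too wide at these counts to tell a difference of more than 2-fold from none. Fcer1g was at 0.54 and Fcgrt at 0.39 on the log2 scale, and without MRL-IRAK4-KD replicate 4 they were -0.02 and 0.12.

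IRAK4-KD against C57BL6/J mice gave 0 of 7 members at an edgeR adjusted p below 0.05, against 0.147% of all genes. Fcrls was the 1 of 7 at an unadjusted p below 0.05, against 3.8% of all genes, and it was lower in IRAK4-KD mice. The log2 fold changes of Fcgr1, Fcgr2b and Fcgr3 were 0.14, -0.01 and -0.04, with intervals of -0.26 to 0.54, -0.48 to 0.46 and -0.43 to 0.35.

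MRL-IRAK4-KD against IRAK4-KD mice, the lpr contrast under the kinase-dead gene, gave 0 of 7 members at an edgeR adjusted p below 0.05, against 0.0735% of all genes. At an unadjusted p below 0.05 it gave 2 of 7, against 8.63%. These were Fcer1g, at a log2 fold change of 0.77 (SE 0.32, edgeR unadjusted p = 0.0329, adjusted p = 0.553), and Fcgrt, at 0.68 (SE 0.21, edgeR unadjusted p = 0.0055, adjusted p = 0.506). Without MRL-IRAK4-KD replicate 4 they were 0.21 (edgeR unadjusted p = 0.0956) and 0.42 (edgeR unadjusted p = 0.00396). Every MRL-IRAK4-KD library was above every IRAK4-KD library for Fcgrt. The share of all genes with that pattern was not computed, so how common it is cannot be told. Without the library labelled IRAK4-KD replicate 3 the value of Fcgrt was 0.54 (edgeR unadjusted p = 0.0356).

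The interaction asks whether the difference between intact and kinase-dead Irak4 was larger on the lpr background. It gave 0 of 7 members at an edgeR adjusted p below 0.05, against 0.00263% of all genes, and 1 of 7 at an unadjusted p below 0.05, against 4.17%. This was Fcgr2b, at 0.76 on the log2 scale (SE 0.29, edgeR unadjusted p = 0.0206, adjusted p = 0.914). Fcgr4 was at 1.78 (SE 0.87, edgeR unadjusted p = 0.0602) and Fcgr1 at 0.51 (SE 0.25, edgeR unadjusted p = 0.0601). Without MRL replicate 4 the interaction of Fcgr4 was 0.72 (edgeR unadjusted p = 0.239) and that of Fcgr2b 0.54 (edgeR unadjusted p = 0.0346). Without the library labelled IRAK4-KD replicate 3, whose Fas transcripts are those of lpr libraries, Fcgr2b was at 0.81 (edgeR unadjusted p = 0.0254) and Fcgr1 at 0.64 (edgeR unadjusted p = 0.0236).

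**Figure D3:**
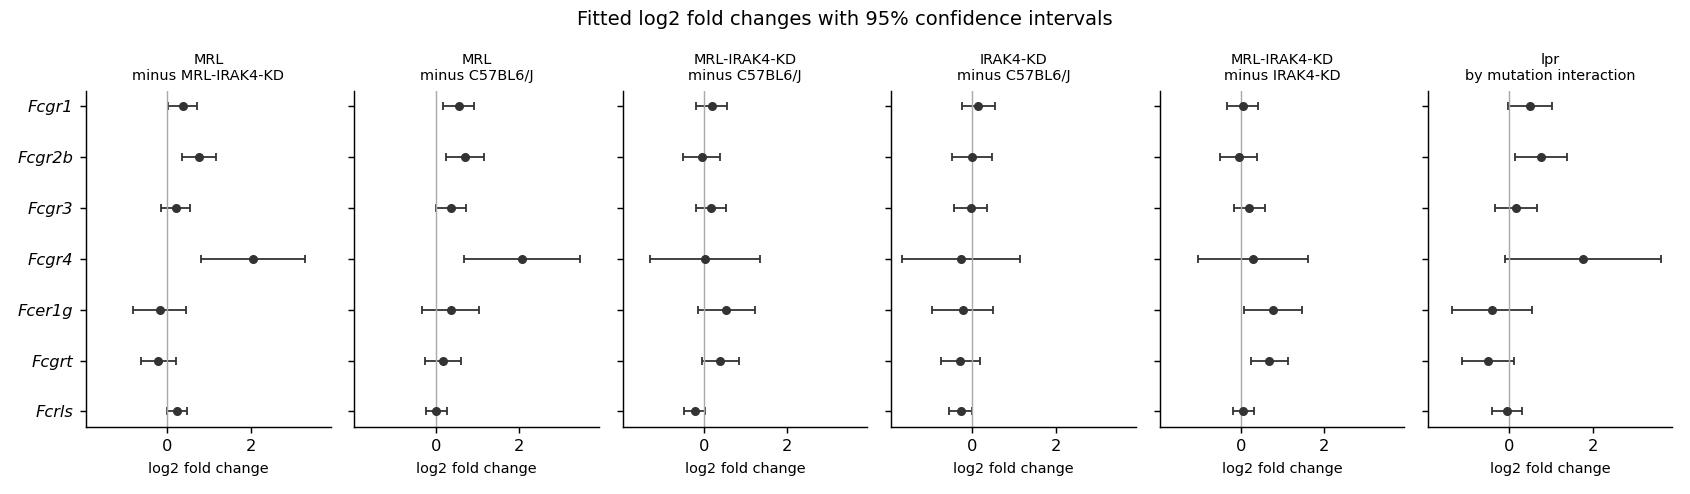
Log2 fold changes of the 7 genes from edgeR (points) with 95% intervals (bars) in the 5 comparisons of groups and the interaction, 1 panel each. In the 2 panels with MRL mice Fcgr4 has the highest value, near 2, followed by Fcgr2b near 0.7, while Fcer1g and Fcgrt have intervals that include 0.

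The balance of activating to inhibitory receptors was read within each library as the summed CPM per kb of Fcgr1, Fcgr3 and Fcgr4 over that of Fcgr2b. Its size rests on the 5790 bases of merged exons of Fcgr2b. A shorter length for Fcgr2b would lower the balance by the same factor in every library. The balance was 12.1 ± 0.935 (SD, n = 4) in MRL mice, 17.6 ± 6.17 (n = 4) in MRL-IRAK4-KD, 14.6 ± 2.01 (n = 3) in C57BL6/J and 14.3 ± 0.747 (n = 3) in IRAK4-KD mice. The MRL-IRAK4-KD libraries were at 14.7, 14.9, 13.8 and 26.8, so that their mean and SD rest on replicate 4, and without it they were 14.5 ± 0.605 (n = 3). The exact permutation p was 0.0286 against MRL-IRAK4-KD mice, or 0.286 after adjustment over 20 ratio tests, and 0.114 against C57BL6/J mice. The exact permutation p against MRL-IRAK4-KD mice was 0.0571 with that library left out, the smallest that the 2-sided test used gives for 4 mice against 3. The CPM ratio of Fcgr3 to Fcgr2b was 3.33, 3.05, 3.16 and 2.71 in MRL mice, 3.88, 3.85, 3.58 and 7.18 in MRL-IRAK4-KD mice, 3.65, 3.37 and 4.49 in C57BL6/J mice and 3.68, 3.90 and 3.55 in IRAK4-KD mice. All 4 MRL libraries were below the other 10, and the outlying 7.18 was that of MRL-IRAK4-KD replicate 4. That library had 0 counts of the transcript Fcgr2b-202. A ratio within a library shows unequal levels of the 2 genes, and shared reads could move between them.

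With Fcgr2b and Fcgr3 summed to 1 gene, which takes out the effect of their shared sequence, the log2 fold change was 0.32 over MRL-IRAK4-KD mice (edgeR unadjusted p = 0.0467) and 0.45 over C57BL6/J mice (edgeR unadjusted p = 0.0153).

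The libraries that decided several of these values are MRL replicate 4 and MRL-IRAK4-KD replicate 4. MRL replicate 4 was 1.31 times the mean of the other 3 MRL libraries for Fcgr1, 1.73 times for Fcgr2b, 1.47 times for Fcgr3 and 5.47 times for Fcgr4, and 1.2 times for Fcer1g. MRL-IRAK4-KD replicate 4 was 2.89 times the mean of its group's other libraries for Fcer1g, 1.83 times for Fcgrt, 1.38 times for Fcgr3 and 1.31 times for Fcgr4, but 0.728 times for Fcgr2b. The last value came with 0 counts of the transcript Fcgr2b-202, as given above.

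**Figure D4:**
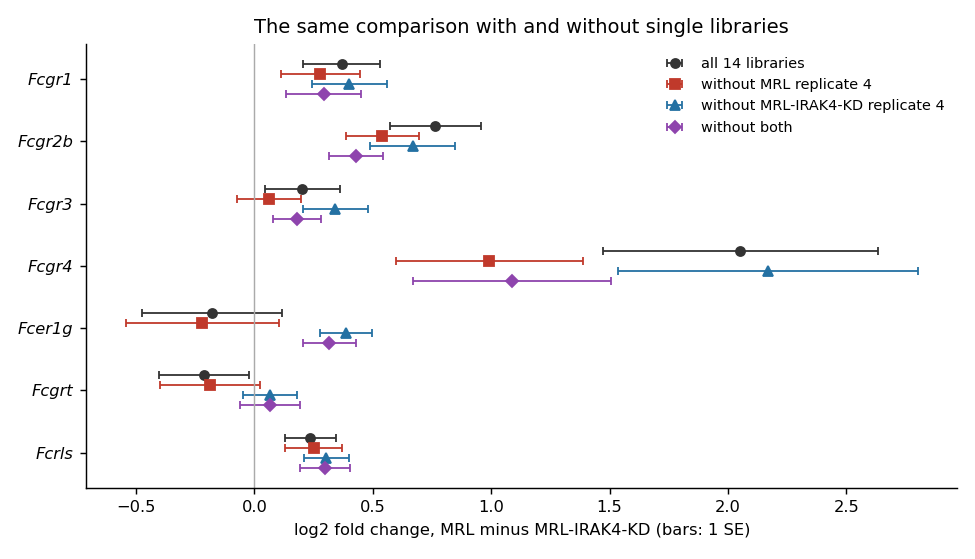
Log2 fold change of each gene in MRL over MRL-IRAK4-KD mice from edgeR, with bars of 1 SE, for all 14 libraries and with MRL replicate 4, MRL-IRAK4-KD replicate 4 or both left out. Fcgr4 moves from 2.05 to 0.99 without MRL replicate 4, and Fcer1g from -0.18 to 0.39 without MRL-IRAK4-KD replicate 4.

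Genes downstream of the receptors were read from lists of known pathway members. Their counts are to be read against all genes tested, of which 11.4% were at an unadjusted p below 0.05 in MRL against MRL-IRAK4-KD and 5.55% in MRL against C57BL6/J mice. Of all genes, 6.98% and 4.72% were when MRL replicate 4 was left out, and 8.52% and 10.1% when MRL-IRAK4-KD replicate 4 was. In MRL against MRL-IRAK4-KD mice, 0 of 21 ITAM signalling genes were at an edgeR adjusted p below 0.05, and 4 were higher at an unadjusted p below 0.05 with 0 lower, at a median log2 fold change of 0.23. Among them were the adaptor Lat2 (0.68, edgeR unadjusted p = 0.00557), the kinase Lyn (0.48, and 0.30 without MRL-IRAK4-KD replicate 4) and the actin regulator Was (0.41). Syk, the kinase that binds the phosphorylated ITAM, was at 0.23 (edgeR unadjusted p = 0.178), and Tyrobp at -0.17 (edgeR unadjusted p = 0.515), which was 0.28 (edgeR unadjusted p = 0.0134) without MRL-IRAK4-KD replicate 4. Without MRL replicate 4 the count was 1 of 21, and without MRL-IRAK4-KD replicate 4 it was 5 of 21. Against C57BL6/J mice 3 of the 21 were higher and 0 lower at that threshold, among them Vav1 at 0.40 and Pik3cg at 1.02, and 6 were when MRL-IRAK4-KD replicate 4 was left out.

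Of 10 genes of the ITIM pathway, 0 were at an adjusted p below 0.05 with edgeR, and 3 were higher at an unadjusted p below 0.05 in MRL than in MRL-IRAK4-KD mice, with 0 lower. Inpp5d, the phosphatase recruited by Fcgr2b, was at 15.96, 12.6, 11.9 and 14.8 CPM in MRL and at 11.8, 10.99, 9.79 and 7.15 CPM in MRL-IRAK4-KD mice. The log2 fold change of Inpp5d was 0.48 (SE 0.15, edgeR unadjusted p = 0.00666, adjusted p = 0.403), with every MRL library above every MRL-IRAK4-KD library. The related phosphatase Inppl1 was at 0.39 and the tyrosine phosphatase Ptpn6 at 0.42. The value of Inppl1 rests in part on MRL-IRAK4-KD replicate 4, at 12.1 CPM against 22.9 to 24.2 CPM in its group, and was 0.21 without it. Without MRL replicate 4 the count was 1 of 10. Against C57BL6/J mice Inpp5d was at 0.44 (edgeR unadjusted p = 0.0174) and Inppl1 at 0.39 (edgeR unadjusted p = 0.0486), the 2 of 10 at that threshold, and the count was 1 without MRL replicate 4. Inppl1 alone of the list passed the edgeR adjusted threshold there when MRL-IRAK4-KD replicate 4 was left out (0.40, adjusted p = 0.0348). The medians of this list were 0.19 and 0.12 on the log2 scale.

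Of 12 genes of phagocytosis and the oxidative burst, 0 were at an edgeR adjusted p below 0.05, and 4 were higher in MRL than in MRL-IRAK4-KD mice by the unadjusted threshold. These were the oxidase subunits Cybb (log2 fold change 1.03) and Ncf1 (0.33) and the integrin chains Itgam (0.61) and Itgb2 (0.37), which form complement receptor 3. Itgam was at 7.89 CPM in MRL-IRAK4-KD replicate 4 against 19.0 to 20.9 CPM in its group, and its log2 fold change was 0.37 without that library. Cybb was at 0.62 without MRL replicate 4. Against C57BL6/J mice 5 of 12 were higher, with Cybb at 1.12, Ncf1 and Itgb2 at 0.56 each and the scavenger receptor Msr1 at 1.07. The medians of this list were 0.058 and 0.33 in these comparisons. Over C57BL6/J mice the count was 3 without MRL replicate 4, where Cybb was at 0.70. With MRL-IRAK4-KD replicate 4 left out, 6 of 12 were higher than in MRL-IRAK4-KD mice and the median was 0.30.

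Of 8 partners of IgG and albumin recycling, 0 were at an edgeR adjusted p below 0.05. B2m, the light chain of FcRn and of class I molecules, was at 115, 116, 92.6 and 182 CPM in MRL and at 86.4, 89.3, 82.3 and 113 CPM in MRL-IRAK4-KD mice. The log2 fold change of B2m was 0.44 over MRL-IRAK4-KD mice (edgeR unadjusted p = 0.0209) and 0.80 over C57BL6/J mice (edgeR unadjusted p = 0.000839, adjusted p = 0.556). Without MRL replicate 4 these values of B2m were 0.24 (edgeR unadjusted p = 0.0753) and 0.58 (edgeR unadjusted p = 0.000715). The heavy chain Fcgrt was at -0.21, or 0.07 without MRL-IRAK4-KD replicate 4, and at 0.18 in the same comparisons, and the difference between the chains was not tested. The endocytic receptor Lrp1 was higher at 0.40 and the sorting nexin Snx17 lower at -0.20 over MRL-IRAK4-KD mice by the unadjusted threshold, or at 0.22 and -0.12 without MRL-IRAK4-KD replicate 4, and the list's median was 0.29 there and 0.051 over C57BL6/J mice.

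Of 12 other Fc receptor genes, 11 could be tested and 0 were at an edgeR adjusted p below 0.05. Trim21, the cytosolic receptor for antibody, was at 3.02, 2.61, 2.63 and 4.73 CPM in MRL and at 2.66, 2.23, 2.38 and 1.53 CPM in MRL-IRAK4-KD mice, which fitted as 0.56 on the log2 scale (edgeR unadjusted p = 0.0324), or 0.34 (edgeR unadjusted p = 0.154) without MRL replicate 4. Fcrl1 was lower at -0.51 (edgeR unadjusted p = 0.0276). Fcrla and Fcamr were also at that threshold, but were below 0.1 CPM in each library of both lpr groups. Of 23 genes around Fcgr2b, Fcgr3, Fcgr4 and Fcer1g on chromosome 1, 1 was higher and 3 were lower in MRL than in MRL-IRAK4-KD mice by the unadjusted threshold, at a median log2 fold change of -0.08. Of these neighbours 0 were at an edgeR adjusted p below 0.05, and without MRL-IRAK4-KD replicate 4, 0 were higher and 1 was lower.

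Markers of cells that carry these receptors were read in the same way. Of 16 microglia markers, 2 were higher and 0 lower in MRL than in MRL-IRAK4-KD mice by the unadjusted threshold, and 7 were higher than in C57BL6/J mice, each with 0 at an edgeR adjusted p below 0.05. The first count was near the 11.4% of all genes, and it rested on MRL-IRAK4-KD replicate 4, since without that library 11 of 16 were higher than in MRL-IRAK4-KD and 12 of 16 than in C57BL6/J mice. The medians of these markers were 0.13 and 0.33 on the log2 scale. The sum was 612 to 788 CPM in MRL, 574 to 752 in MRL-IRAK4-KD, 518 to 546 in C57BL6/J and 485 to 549 in IRAK4-KD mice. Csf1r, Cx3cr1 and P2ry12 had log2 fold changes of 0.13, 0.13 and 0.18 over MRL-IRAK4-KD mice and of 0.36, 0.27 and 0.10 over C57BL6/J mice. Divided by the summed microglia markers, Fcgr4 still had no overlap between MRL and MRL-IRAK4-KD or C57BL6/J libraries (exact permutation p = 0.0286 and 0.0571). On that scale Fcgr2b differed by 0.59 on the log2 scale between MRL and MRL-IRAK4-KD mice, against 0.72 undivided, with overlap (exact permutation p = 0.114). Fcgr1 was at 0.21 there and also overlapped (exact permutation p = 0.0857). Of the 5 members that did not overlap between MRL and C57BL6/J mice, 4 overlapped once divided. These were Fcgr1 at 0.17 (exact permutation p = 0.286), Fcgr2b at 0.29 (exact permutation p = 0.343), Fcgr3 at -0.027 and Fcer1g at -0.025. Fcgr3 and Fcer1g had both been at 0.35 before the division. Fcrls, itself a microglia marker but not in the list, was lower than in C57BL6/J mice once divided, without overlap. It was at -0.36 in MRL and -0.45 in MRL-IRAK4-KD mice (exact permutation p = 0.0571 each) and at -0.27 in IRAK4-KD mice (exact permutation p = 0.1). The share of all genes without overlap on the divided scale was not computed.

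Of 10 markers of monocytes and neutrophils, which also carry Fcgr4, 10 were higher in MRL than in MRL-IRAK4-KD mice and 9 higher than in C57BL6/J mice at an unadjusted p below 0.05, with median log2 fold changes of 3.27 and 3.12. Of these, 0 were at an edgeR adjusted p below 0.05. Their sum was 9.28, 34.2, 2.85 and 27.6 CPM in MRL replicates 1 to 4 and between 1.48 and 6.59 CPM in the other 10 libraries, with 0 of the 10 markers at 0 throughout. Fcgr4 was at 0.249, 0.299, 0.196 and 1.36 CPM in the same 4 libraries. The sum of replicate 2 was carried by the neutrophil genes S100a8, S100a9 and Ngp, at 7.33, 10.05 and 8.88 CPM. The monocyte genes Ly6c2, Ccr2 and Plac8, named after their values were seen, were highest in MRL replicate 4, as was Fcgr4. Chil3 and Mmp8 of the list were also highest there, while S100a8, S100a9, Ngp, Camp and Retnlg were highest in MRL replicate 2. Without MRL replicate 4, 8 of 10 markers were higher than in MRL-IRAK4-KD and 8 of 10 than in C57BL6/J mice by the unadjusted threshold. In MRL replicates 1 to 4, Ly6c2 was at 1.37, 1.58, 0.644 and 3.44 CPM, Ccr2 at 0.411, 0.446, 0.323 and 1.28 CPM and Plac8 at 0.211, 0.396, 0.0697 and 1.55 CPM. The part of these cells in the level of Fcgr4 was not tested.

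Of 8 endothelial markers, 6 were higher in MRL than in MRL-IRAK4-KD mice by the unadjusted threshold, and Slco1a4 rose at an adjusted p below 0.05 (log2 fold change 0.88, edgeR adjusted p = 0.0434), which was 0.145 without MRL replicate 4. Against C57BL6/J mice 6 of 8 were higher at an unadjusted p below 0.05. The endothelial markers summed to 202.6, 184.2, 180.5 and 332 CPM in MRL and to 119 to 156 CPM in MRL-IRAK4-KD mice, so MRL replicate 4 was the highest here as well as for Fcgr2b and Fcgr3. Of 14 interferon-stimulated genes, 12 were higher in MRL than in MRL-IRAK4-KD mice by the unadjusted threshold with 0 at an edgeR adjusted p below 0.05, at a median log2 fold change of 1.00. Their sum was 92.6, 82.0, 74.5 and 256 CPM in MRL and 49.5 to 75.6 CPM in the other libraries. Against C57BL6/J mice 10 of 14 were higher in MRL mice at that threshold, at a median of 0.98. Ifit3 went the other way, at -0.53 in MRL over C57BL6/J mice (edgeR unadjusted p = 0.0561). It was also lower in MRL-IRAK4-KD than in C57BL6/J mice (log2 fold change -1.54, edgeR adjusted p = 0.0388), which was 0.0738 without MRL-IRAK4-KD replicate 4. Lower Ifit3 was thus not limited to lpr mice with the kinase-dead gene. MRL replicate 4 was also highest in 8 border macrophage markers, at 19.0 CPM against 5.72 to 13.6 CPM elsewhere, with 0 of the 8 genes at an unadjusted p below 0.05 in MRL against MRL-IRAK4-KD mice. Whether any of these accounts for the receptor levels of MRL replicate 4 was not tested.

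The 8 choroid plexus markers, 9 B and plasma cell markers, 8 NK and T cell markers and 8 meningeal markers had 0 genes at an unadjusted p below 0.05 in MRL against MRL-IRAK4-KD mice. The choroid plexus sum, Fcer1g and Fcgrt were each highest in MRL-IRAK4-KD replicate 4. Ttr made 7630 of the 7805 CPM of that sum. Kl and Aqp1 were lower there than in MRL-IRAK4-KD replicate 1, and the other choroid plexus markers were highest there. MRL-IRAK4-KD replicate 1 had the next highest sum, 1851 CPM, with Fcgrt at 14.5 CPM and Fcer1g at 6.46 CPM. The part of choroid plexus was not tested beyond leaving out MRL-IRAK4-KD replicate 4. The NK and T cell markers summed to at most 1.29 CPM except in the library labelled IRAK4-KD replicate 3, which had 6.12 CPM, of which Cd4 alone made 5.98 CPM. Of 8 hippocampal neuron markers, 3 were lower in MRL than in MRL-IRAK4-KD mice by the unadjusted threshold.

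**Figure D5:**
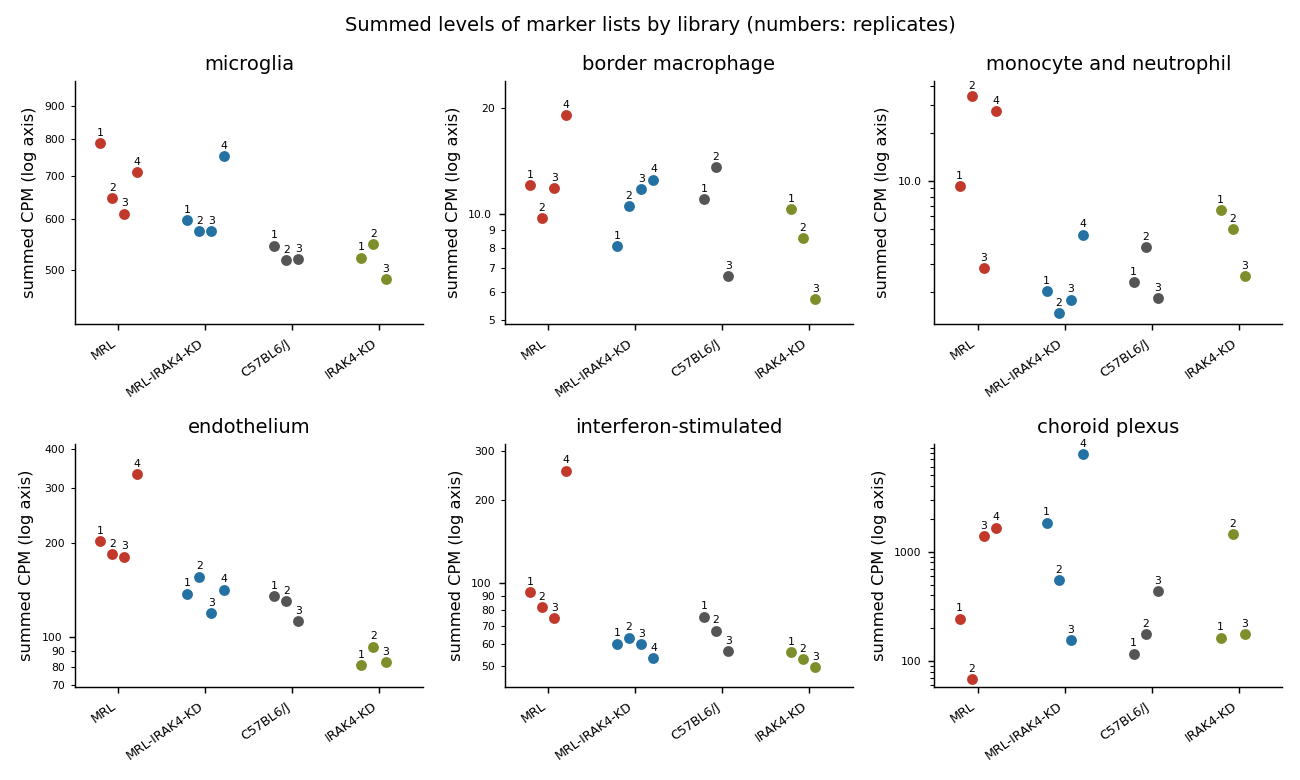
Summed CPM of marker lists in each library by group, on log axes, with replicate numbers at the points. MRL replicate 4 is highest for endothelial, border macrophage and interferon-stimulated genes, and MRL-IRAK4-KD replicate 4 is highest for choroid plexus genes.

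The members varied with one another in ways that these libraries shaped. Over the 14 libraries, which share tissue and preparation, Fcer1g correlated with Fcgrt at Pearson r = 0.894 and with Fcgr2b at r = 0.07. Without MRL-IRAK4-KD replicate 4 these were 0.739 and 0.861. Fcgr2b and Fcgr3 correlated at 0.589, at 0.918 without that library, and at 0.743 with MRL replicate 4 left out as well. Fcrls had r between 0.386 and 0.53 with the other 6 genes over 14 libraries.

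The genes whose levels were most like those of each member over the 14 libraries, by Pearson r among genes of at least 1 CPM on average, also differed. For Fcgr2b they were Tmem252 (r = 0.976), Gbp3 (0.966) and Parp9 (0.951). For Fcgr4 they were Gbp7 (0.945), Gbp2 (0.934) and Nlrc5 (0.932), of which the Gbp genes encode interferon-induced GTPases. Genes most like Fcgr1 included the transcription factor Runx1 (0.91) and Tmem173 (0.887), which encodes STING. Fcgr3 was most like Ly6c1 (0.945), Lrg1 (0.934) and Ly6a (0.93), genes known from endothelium among other cells. Over the 13 libraries without MRL-IRAK4-KD replicate 4 the closest gene was Runx1 (0.978) for Fcgr2b, Ecscr (0.959) for Fcgr4 and again Ly6c1 (0.936) for Fcgr3. MRL replicate 4, the highest library for Fcgr2b, Fcgr3 and Fcgr4, weighs on these values. Gbp2 was at 59.3 CPM there and at 2.24 to 5.94 CPM elsewhere. Likeness was not computed without MRL replicate 4, so how far it rests on that library cannot be told.

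Fcer1g was most like Gpx1 (0.969), Trem2 (0.968), a microglial receptor, and Ptpn18 (0.966), which were 0.909, 0.886 and 0.876 without MRL-IRAK4-KD replicate 4. This order rests on that library, since over the other 13 the closest genes were Ube2l6 (0.97), Icam2 (0.962) and Tie1 (0.959), whose r over all 14 was 0.535, 0.673 and 0.507. Fcgrt was most like Cd151 (0.966), Map6 (0.948) and Anxa5 (0.942), of which Cd151 and Anxa5 were also among the closest 3 over 13 libraries. Fcrls had no gene as close, with the mitochondrial tRNA genes mt-Tn (0.847) and mt-Ta (0.843) and then Apc (0.83).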

How the data were processed

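Poly(A) RNA of 14 hippocampi was sequenced. Per the labels the kit was KAPA HyperPrep mRNA, while the study's methods name SMART-seq v4 and NexteraXT. According to the submitters' processing notes the authors used HISAT2 2.1.0 on mm10, SAMtools 1.9 and StringTie 2.1.0, and the deposited counts of genes and of transcripts are whole numbers, not normalized. StringTie derives these counts from coverage, so they are not independent molecules and intervals on them would cover counting error only. DESeq2 1.30.1 in R 4.0.5 is also listed there. All 55536 Ensembl identifiers matched GENCODE M21, and the other features of the 81881 in the table were not tested. Total counts per library were between 279941472 and 572398312.

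Groups were taken from the labels. From the deposited counts, edgeR 4.0.16 was fitted to the 38070 genes whose counts summed to 10 or more in R 4.3.3 (quasi-likelihood, robust, TMM, 1 model of the 4 groups), with Benjamini-Hochberg adjustment over all of them and a threshold of 0.05. Standard errors are the log2 fold change over the root of F, and 95% intervals use the t quantile of the fit. Single genes and ratios were compared by 2-sided exact permutation tests with the smaller tail doubled, genes on log2(CPM + 0.1). The labels do not say that the mice of a group are from separate litters, and p-values measure the spread between these libraries. Alternatives were DESeq2 1.42.0, limma 3.58.1 (voom with quality weights), other scalings and filters, only the groups compared, a replicate block, libraries left out, Fcgr2b and Fcgr3 summed and another pseudocount. Leaving out MRL and MRL-IRAK4-KD replicate 4 together, leaving out either for the lists and the second for the ratios, and dividing by microglia markers were added after values were seen. The fits were also run on simulated counts with known changes, placed only in genes more abundant than Fcgr4 and without outlying libraries. That run cannot tell how the fits treat Fcgr4 or the outlying libraries of these data.

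The members and the 16 gene lists (183 genes) were chosen with earlier results of these data known. All 7 members are named, and of the list genes those at an adjusted p below 0.05, at most 4 per list with the smallest p, a fixed set of partner and microglia genes, and the 3 genes most like each member. A result that these rules would name is not reported here. Promoters are those of RefSeq on GRCm38.p6. Figures used matplotlib 3.10.9 and Python 3.11.15.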

Additional observations from a re-analysis of the deposited data

Results flagged for a closer look

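In 5 of the members' groups of 4 mice, 1 library lay so far from the others that its gap to the nearest exceeded Dixon's critical value, which chance does in about 1 in 20 groups. MRL replicate 4 had 8.43 CPM of Fcgr2b against 4.72 to 5.06 CPM in the other MRL libraries, 22.9 CPM of Fcgr3 against 15.4 to 15.7 CPM, and 1.36 CPM of Fcgr4 against 0.196 to 0.299 CPM. MRL-IRAK4-KD replicate 4 had 18.3 CPM of Fcer1g against 5.96 to 6.53 CPM in the other libraries of its group, and 27.6 CPM of Fcgrt against 14.5 to 15.8 CPM. Fcgr1 and Fcrls had no such library in these groups, and groups of 3 mice were not examined in this way.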

How the results depend on the processing

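With each of the 14 libraries left out in turn, edgeR called 0 members in all 6 comparisons, and the log2 fold changes of Fcgr2b and Fcgr4 stayed positive, at 0.54 to 0.85 and 0.99 to 2.33 over MRL-IRAK4-KD mice and at 0.48 to 0.81 and 1.01 to 2.35 over C57BL6/J mice. The number of members at an unadjusted p below 0.05 then lay between 2 and 6 for MRL against MRL-IRAK4-KD, between 3 and 5 for MRL against C57BL6/J, between 0 and 1 for MRL-IRAK4-KD against C57BL6/J, between 0 and 2 for IRAK4-KD against C57BL6/J, between 1 and 2 for MRL-IRAK4-KD against IRAK4-KD, and between 1 and 3 for the interaction. The direction turned in these ranges for Fcer1g (-0.3182 to 0.3868) and Fcgrt (-0.307 to 0.0661) between MRL and MRL-IRAK4-KD, for Fcgr2b (-0.1346 to 0.0476), Fcgr4 (-0.1187 to 0.1779) and Fcer1g (-0.0194 to 0.6839) between MRL-IRAK4-KD and C57BL6/J, and for Fcgr2b (-0.0742 to 0.0478) and Fcgr3 (-0.103 to 0.0395) between IRAK4-KD and C57BL6/J mice. For Fcer1g and Fcgrt the library was MRL-IRAK4-KD replicate 4.

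DESeq2 called 2 members, Fcgr2b and Fcgr4, between MRL and MRL-IRAK4-KD mice, and had 3 at an unadjusted p below 0.05 for the interaction. Limma-voom with quality weights had 1 member there for MRL-IRAK4-KD against C57BL6/J, 0 for IRAK4-KD against C57BL6/J, 1 for MRL-IRAK4-KD against IRAK4-KD and 2 for the interaction. It turned Fcer1g to 0.3175 and Fcgrt to 0.0382 between MRL and MRL-IRAK4-KD, Fcgr2b to 0.0475, Fcgr4 to -0.1609 and Fcer1g to -0.0119 between MRL-IRAK4-KD and C57BL6/J, and Fcgr2b to 0.0254 and Fcgr3 to 0.0154 between IRAK4-KD and C57BL6/J mice. The cause of these changes was not tested. Scaling by library size only gave 1 member at an unadjusted p below 0.05 and Fcgr4 at -0.0334 for MRL-IRAK4-KD against C57BL6/J. Fitting only the groups compared gave 2 members for MRL against MRL-IRAK4-KD and 1 for MRL-IRAK4-KD against IRAK4-KD. With Fcgr2b and Fcgr3 summed, the interaction had 0. RLE size factors, both other filters on low counts, dispersion without robust estimation and a pseudocount of 1 turned no direction and changed no call among the values given in the text. The transcript table summed per gene held the same counts, with 0 of 55536 genes differing, and so could change nothing. Of 15 further log2 fold changes that are shown in the plot of fold changes only, 9 turned direction under at least 1 setting and 0 passed the adjusted threshold under any.

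Without MRL-IRAK4-KD replicate 4 and the library labelled IRAK4-KD replicate 3 together, the counts at an unadjusted p below 0.05 were 1, 0, 1 and 2 for MRL-IRAK4-KD against C57BL6/J, IRAK4-KD against C57BL6/J, MRL-IRAK4-KD against IRAK4-KD and the interaction. Fcer1g and Fcgrt were then at 0.3767 and 0.0564 between MRL and MRL-IRAK4-KD. Fcgr2b, Fcgr4 and Fcer1g were at 0.0488, -0.0843 and -0.0183 between MRL-IRAK4-KD and C57BL6/J, and Fcgr2b and Fcgr3 at 0.0487 and 0.0449 between IRAK4-KD and C57BL6/J mice. Without replicate 4 of both lpr groups, a setting chosen after the data were seen, the counts were 1 for MRL-IRAK4-KD against C57BL6/J, 2 for IRAK4-KD against C57BL6/J and 1 for MRL-IRAK4-KD against IRAK4-KD. Fcer1g and Fcgrt were at 0.3167 and 0.0661 between MRL and MRL-IRAK4-KD, and Fcgr2b, Fcgr4 and Fcer1g at 0.0476, -0.0837 and -0.0195 between MRL-IRAK4-KD and C57BL6/J mice.

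Same-numbered mice were not treated as pairs in the main fit. Of 19 same-numbered pairs the deviations of 4 correlated above 0.1 (range -0.251 to 0.375), and 2 of 14 libraries correlated best with their own number. Correlations in groups this small cannot show whether same-numbered mice shared their handling. With the replicate block, 1 member was at an unadjusted p below 0.05 for MRL-IRAK4-KD against IRAK4-KD and 2 for the interaction, and Fcgr4 was at -0.3867 for MRL-IRAK4-KD against C57BL6/J. Per summed microglia CPM, also chosen later, the differences of Fcgr1 and Fcgr2b between MRL and MRL-IRAK4-KD mice, 0.21 and 0.5916 on the log2 scale, no longer reached the smallest exact permutation p, and those of Fcgr3 and Fcer1g between MRL and C57BL6/J mice turned to -0.0267 and -0.02491.

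Counts of Fcgr4, 22 to 63 outside MRL mice, limit what can be told of it in the comparisons without MRL mice. The size of its difference in MRL mice rests on replicate 4.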
